A study of Mus musculus with 18 samples.

Results

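Kidney microRNAs (miRNAs) of diabetic mice given germacrone were compared with those of control mice, using 12 of the 18 small RNA libraries of the study. The control group held 6 libraries from C57BL/6J mice given 0.9% saline. The treated group held 6 libraries from C57BL/KsJ mice with diabetic nephropathy (DN) given germacrone, a sesquiterpene of Curcuma plants, at 10 mg/kg/day. The other 6 libraries, from C57BL/KsJ mice with DN given 0.9% saline, entered no test here and are given as levels only. Mouse strain, disease and drug all differ between the treated and control groups, so their effects cannot be told apart in this comparison. The labels used here give neither age nor sex, nor whether each library came from its own animal. The p-values therefore set the group difference against the spread between these libraries, which may be technical. The study's title ties germacrone to protection in diabetic nephropathy.

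Mature miRNAs are short RNAs cut from the arms of a hairpin precursor, and the 5p and 3p names mark the arm. Loaded into an Argonaute protein, a miRNA pairs with messenger RNAs mainly through its seed, bases 2 to 8 from its 5′ end, and lowers their stability and translation. In the kidney, miRNAs are needed for podocytes and tubules to stay intact, and miR-21 and the miR-192, miR-200 and miR-29 families have been studied most in diabetic and fibrotic injury.

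Of 735 mouse names in the table, 410 had enough counts to be tested and 325 did not. A name was called when its adjusted p was under 0.05 in edgeR's quasi-likelihood test, which compared 6 libraries with 6. RefSeq held the mature sequence of 348 of the 410 tested names and of 43 of the 52 called ones. The sequences below are those on which the results turn, written 5′ to 3′ with the seed in capitals. The first set shows hairpins of which both arms were called higher in the treated kidneys:
miR-802-5p: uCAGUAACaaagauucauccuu
miR-802-3p: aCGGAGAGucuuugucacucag
miR-335-5p: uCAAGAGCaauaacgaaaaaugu
miR-335-3p: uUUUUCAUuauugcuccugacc
miR-21a-5p: uAGCUUAUcagacugauguuga
miR-21a-3p: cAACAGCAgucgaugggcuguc

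The next set shows called miRNAs that share a seed. The miR-30 and miR-10 members were higher and the let-7 members lower in treated kidneys:
miR-30a-5p: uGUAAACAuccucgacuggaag
miR-30c-5p: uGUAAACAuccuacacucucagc
miR-30e-5p: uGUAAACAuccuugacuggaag
miR-10a-5p: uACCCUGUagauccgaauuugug
miR-10b-5p: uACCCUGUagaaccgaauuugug
let-7a-5p: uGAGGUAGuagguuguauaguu
let-7b-5p: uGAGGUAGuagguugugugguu
let-7c-5p: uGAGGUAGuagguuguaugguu

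Within these sets the members differ outside the seed. Counting from 1 at the 5′ end, let-7a-5p and let-7c-5p differ at 1 position (A19G), and let-7c-5p and let-7b-5p at 1 position (A17G). miR-30a-5p and miR-30e-5p differ at 1 position (C13U), as do miR-10a-5p and miR-10b-5p (U12A). The last set shows single miRNAs among the leading calls, a pair from 1 cluster on the X chromosome (miR-542-3p and miR-450b-5p) and a set from 1 region of chromosome 11 (miR-193a and miR-365):
miR-204-5p: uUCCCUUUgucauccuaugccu
miR-346-5p: uGUCUGCCcgagugccugccucu
miR-27b-3p: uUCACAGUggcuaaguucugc
miR-542-3p: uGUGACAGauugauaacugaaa
miR-450b-5p: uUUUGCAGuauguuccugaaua
miR-193a-5p: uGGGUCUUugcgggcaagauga
miR-193a-3p: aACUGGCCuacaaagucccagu
miR-365-3p: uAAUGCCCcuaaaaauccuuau

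The kept mouse counts came to between 2994133 and 5544214 in the control libraries and between 3021191 and 5022664 in the treated ones. Libraries of both groups stood apart. Controls 1 and 6 correlated more with the treated libraries (median r 0.978 and 0.973) than with their own group (0.971 and 0.965). Control 2 had the lowest correlation with its own group (0.95) and the steepest slope of level on GC content of the miRNA, 0.63 log2 units per 10 percentage points, against −0.27 to 0.26 in the other 11 libraries. By group, the slopes ran from −0.17 to 0.63 in controls and from −0.27 to 0.07 in treated libraries. Control 4 had 358 CPM summed over the striated muscle markers, against 97.7 to 118 in the other controls, and the highest sum of the nerve, adrenal and islet markers (1540 CPM against 623 to 812). Treated library 5 correlated least with its own group (0.963, against 0.974 to 0.976 in the other treated libraries). Treated library 6 had the highest sum of the injury and fibrosis list (164844 CPM, against 51185 to 103650 in the other treated libraries). CPM here is a count divided by the library's total after TMM scaling, which sets each library's total so that most miRNAs do not move between libraries.

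In the treated kidneys 52 of the 410 tested names were called (12.7%), 28 higher (6.83%) and 24 lower (5.85%). miR-802, miR-204, miR-21a, miR-10 and members of the miR-30 family were among those higher, and miR-150-5p, miR-346-5p and let-7b-5p led those lower. The groups did not overlap for 23 of the 410 names (5.61%), 15 higher (3.66%) and 8 lower (1.95%) in the treated libraries. At an unadjusted p under 0.05 there were 128 names (31.2%), and the median log2 fold change (log2FC, treated minus control) over all 410 was −0.04, with 193 names above 0 (47.1%) and 217 below (52.9%). Most calls lay close to the threshold, since 38 of the 52 had an adjusted p above 0.04. Median GC content was 43.5% in the 25 higher names with a sequence and 52.3% in the 18 lower ones. Over the 348 tested names with a sequence it was 47.6%, and why the calls differed in GC content was not tested.

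The calls depended on single libraries and on the scaling. With 1 library left out, the count was 57, 13, 2, 38, 6 and 64 without controls 1 to 6, and 17, 1, 5, 2, 30 and 18 without treated libraries 1 to 6. With scaling by library size alone there were 68 calls, 11 higher and 57 lower, 35 of them shared with the 52, so the share of calls that were higher was 16.2% in place of 53.8%, and the median log2FC over all names was −0.27. The 52 called names kept their sign in each of the 24 alternatives in which they could be run, a GC correction not counted; 49 were run in all 24, and miR-124-3p, miR-669o-3p and miR-344-3p in 23. Of the 52, 29 passed in at least 12. miR-150-5p passed in 24 of 24, miR-346-5p in 22, let-7b-5p in 20 and miR-802-5p in 19. The GC correction could not be run for miR-150-5p, which had no sequence.

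**Figure D1:**
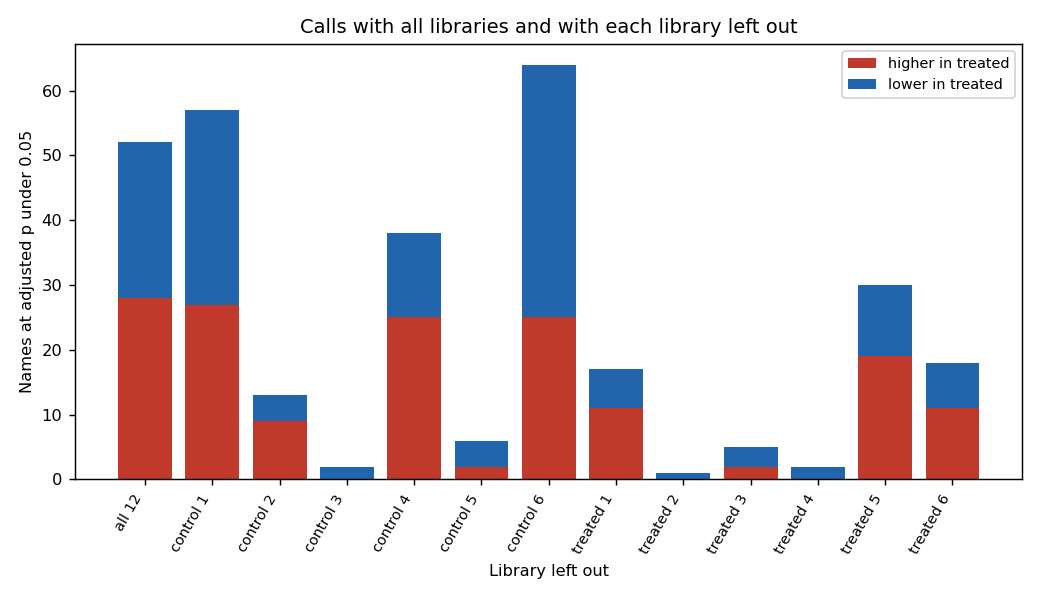
Number of miRNA names with adjusted p under 0.05 (y axis, stacked bars) with all 12 libraries and with each library left out in turn (x axis); red is higher and blue lower in treated kidneys. The count ran from 1 without treated library 2 to 64 without control 6.

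**Figure D2:**
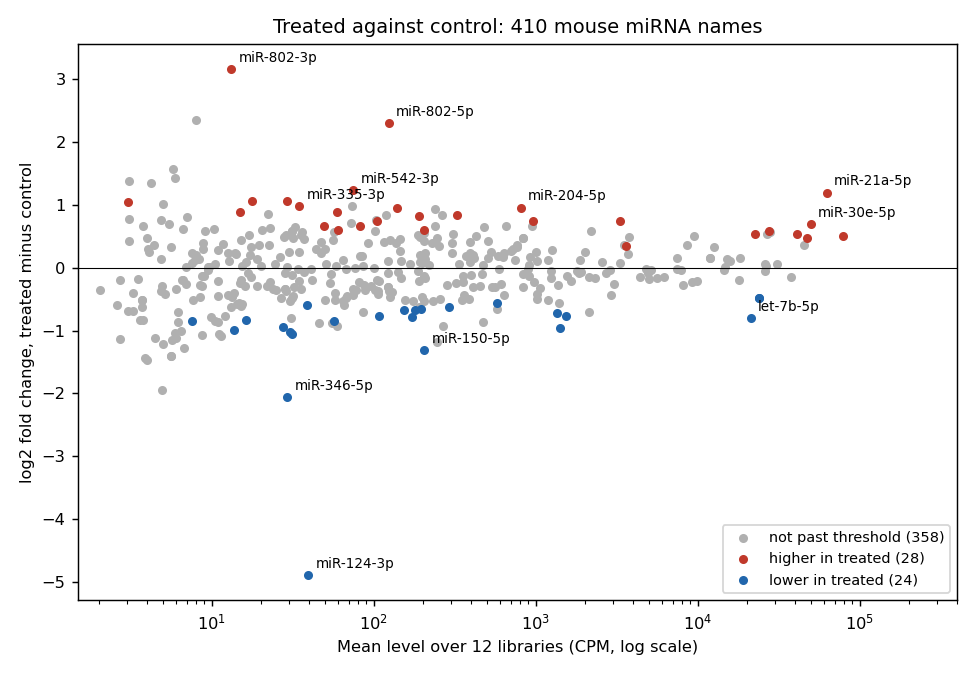
Log2FC (y axis, treated minus control) against the mean CPM over 12 libraries (x axis, log scale) for each of the 410 tested names. Red points are the 28 called higher, blue points the 24 called lower and grey points those not called; miR-802-3p lies at the top and miR-124-3p at the bottom.

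miR-802, which has been linked to impaired insulin signalling in the liver of obese mice, had the largest rise among the called names, on both arms. Its hairpin lies at chr16:93369720-93369816 on the plus strand (GRCm38.p6), with no other annotated gene there. miR-802-5p read 4.29, 39.4 and 89.6 CPM at the lowest, median and highest control library, and 112, 209 and 327 CPM in the treated libraries. The groups did not overlap, and the rise was 4.91-fold (log2FC 2.30, SE 0.47, 95% interval 1.29 to 3.30, adjusted p = 0.02829). The adjusted p was at most 0.06565 when a library was left out, and the call was lost without control 3, control 5, treated 2 or treated 4. miR-802-3p read 0, 2.11 and 7.26 CPM in controls and 12.2, 22.1 and 38.8 CPM in treated libraries, again without overlap (log2FC 3.15, SE 0.72, adjusted p = 0.03084). A count of 0 allows a level of up to 3 counts, which is 0.476 to 0.872 CPM in the control libraries and covers counting error only. In the untreated DN libraries miR-802-5p ranged from 57.2 to 422 CPM with a median of 228, so the DN values span the treated range.

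The hairpin of miR-335 lies in an intron of Mest, an imprinted gene of mesoderm, at chr6:30741299-30741396 (plus strand). miR-335-3p read 14.3, 24.1 and 30.3 CPM in controls and 32.2, 48.6 and 56.1 CPM in treated libraries. Every treated library exceeded every control (log2FC 0.97, SE 0.22, adjusted p = 0.02829). miR-335-5p read 68.5, 138 and 185 CPM against 175, 246 and 329 CPM, and 5 of 6 treated libraries lay above the highest control (log2FC 0.82, SE 0.23, adjusted p = 0.04403). With library-size scaling miR-335-5p was not called (0.61, adjusted p = 0.07561), and with each library's slope of level on GC content removed it was, at a log2FC of 0.42.

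miR-21a, raised in injured and fibrotic kidneys, overlaps an exon of Vmp1 at chr11:86584067-86584158 (minus strand). miR-21a-5p read 14876, 37911 and 56543 CPM in controls and 44127, 81229 and 148861 CPM in treated kidneys. The lowest treated library lay inside the control range and the other 5 above it (log2FC 1.19, SE 0.33, 95% interval 0.48 to 1.90, adjusted p = 0.04403). The call held in 4 of the 12 fits with a library left out. miR-21a-3p read 66.9, 91.1 and 121 CPM against 121, 155 and 338 CPM (log2FC 0.94, SE 0.26, adjusted p = 0.04403), and was not called with library-size scaling (0.71, adjusted p = 0.07311). In untreated DN libraries miR-21a-5p ran from 27048 to 226700 CPM with a median of 76127.

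The kidney-enriched list held 8 tested names, of which 3 rose, none fell and 5 were not called, beside 6.83% called higher over all names. Its median log2FC was 0.53, beside −0.04 over all names. With library-size scaling that median was 0.31 and the all-name median −0.27. miR-204-5p, a tubule miRNA in an intron of the cation channel gene Trpm3 (chr19:22750605-22750672, plus strand), read 354, 547 and 709 CPM in controls and 705, 1006 and 1456 CPM in treated libraries. Only the lowest treated library lay inside the control range (log2FC 0.95, SE 0.21, adjusted p = 0.02829). miR-10b-5p lies among the Hoxd genes and miR-10a-5p beside the Hoxb genes. miR-10b-5p read 16927, 22067 and 27736 CPM against 30045, 31396 and 42883 CPM without overlap (log2FC 0.58, SE 0.13, adjusted p = 0.02829). miR-10a-5p read 23789, 32130 and 47088 CPM against 40328, 46759 and 63025 CPM, with 3 treated libraries above the highest control (log2FC 0.53, SE 0.16, adjusted p = 0.04429). The miR-10a-5p call was lost with library-size scaling (0.31, adjusted p = 0.07561) and with the GC slope removed (0.42, adjusted p = 0.08997), and miR-10b-5p was called in both (0.36 and 0.46). miR-192-5p, studied in diabetic glomeruli, was not called: it read 12595, 20039 and 31226 CPM against 21793, 32804 and 37160 CPM (log2FC 0.53, adjusted p = 0.1054).

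The miR-30 family, which podocytes need to keep their structure, had 5 tested members, of which 3 rose and none fell (median log2FC 0.47). Over all 410 names 6.83% were called higher. The hairpins Mir30e and Mir30c-1 both lie in introns of Nfyc on chromosome 4. A copy on chromosome 1, Mir30c-2, also encodes miR-30c-5p. miR-30e-5p read 31480, 34204 and 52706 CPM in controls and 44046, 65118 and 78863 CPM in treated libraries (log2FC 0.68, SE 0.17, adjusted p = 0.04114). miR-30a-5p read 52075, 62944 and 82461 CPM against 70510, 90047 and 111930 CPM (log2FC 0.50, SE 0.14, adjusted p = 0.04429), with 4 treated libraries above the highest control. miR-30c-5p had a log2FC of 0.47 (SE 0.14, adjusted p = 0.04429), while miR-30b-5p and miR-30d-5p were not called. With the GC slope removed all 3 calls were lost (adjusted p = 0.05999 for miR-30e-5p, 0.08344 for miR-30a-5p and 0.08997 for miR-30c-5p). With library-size scaling miR-30e-5p was still called (log2FC 0.47), and miR-30a-5p (0.27, adjusted p = 0.1129) and miR-30c-5p (0.24, adjusted p = 0.1682) were not.

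**Figure D3:**
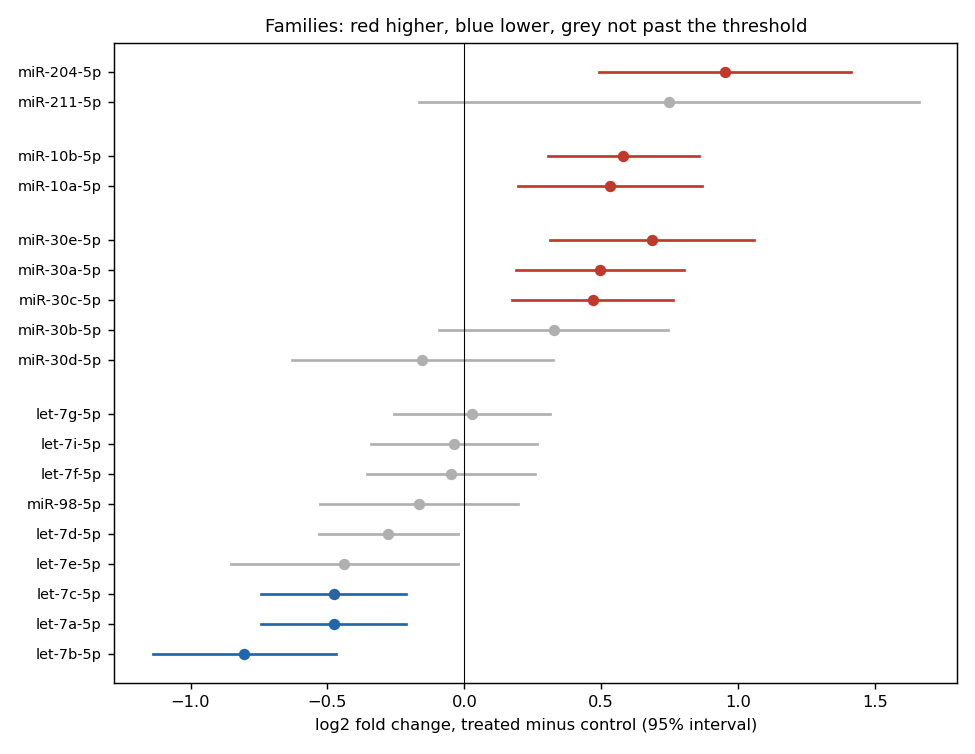
Log2FC with its 95% interval (x axis, treated minus control) for members of 4 seed families (y axis): miR-204 and miR-211, miR-10, miR-30, and let-7 with miR-98; red is called higher, blue called lower and grey not called. The called miR-30 members lie between 0.47 and 0.68, and let-7b-5p at −0.80.

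The let-7 family, which represses growth genes and whose maturation Lin28 blocks, had the most called members of any seed among the lower names. Of 9 tested names with its seed, 3 fell, none rose and 8 had a log2FC below 0 (median −0.28). Over all 410 names 5.85% were called lower and 52.9% had a log2FC below 0. The entries kept for let-7a-5p and let-7c-5p hold the same value in every library, so their 2 calls rest on 1 set of values. A further entry of let-7a-5p holds other values, and with the entries of a name summed the log2FC was −0.42 for let-7a-5p and −0.45 for let-7c-5p (adjusted p = 0.04444 and 0.04158). With the GC slope removed, the log2FC was −0.84 for let-7a-5p and −0.69 for let-7c-5p. The counts behind these values are the same, so they differ only through the GC content of each sequence. let-7b-5p read 19939, 26018 and 37248 CPM in controls and 13230, 15311 and 18373 CPM in treated libraries. Every treated library lay under every control (log2FC −0.80, SE 0.16, 95% interval −1.14 to −0.47, adjusted p = 0.02241). The kept value shared by let-7a-5p and let-7c-5p read 20991, 28153 and 32922 CPM against 16812, 20519 and 22510 CPM (log2FC −0.48, SE 0.12, adjusted p = 0.04114), and 4 treated libraries lay under the lowest control. Mirlet7b (chr15:85707319-85707403) and Mirlet7c-2 (chr15:85706603-85706697) overlap an exon of the same noncoding transcript, Lncppara. A copy on chromosome 16, Mirlet7c-1, also encodes let-7c-5p.

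Among leukocyte markers, miR-150-5p, abundant in mature lymphocytes, had the smallest adjusted p of all names. It read 193, 295 and 376 CPM in controls and 86.2, 114 and 150 CPM in treated libraries. The groups did not overlap, and the level was 2.49-fold lower (log2FC −1.32, SE 0.20, 95% interval −1.74 to −0.89, adjusted p = 0.005303). With 1 library left out, the log2FC ran from −1.41 to −1.17 and the adjusted p reached 0.03359. In untreated DN libraries miR-150-5p had a median of 135 CPM and a highest value of 1598 CPM. miR-155-5p, raised in activated immune cells, read 128, 179 and 246 CPM against 90.5, 114 and 157 CPM (log2FC −0.67, SE 0.19, adjusted p = 0.04429). The other 6 tested leukocyte markers were not called, and the list's median log2FC was −0.02, with 4 of 8 above 0. With library-size scaling the median was −0.26, with 0 of 8 above 0. With the GC slope removed the log2FC of miR-155-5p was −1.10. The summed level of the leukocyte list was 3804 to 4961 CPM in controls, 2244 to 3745 CPM in 5 treated libraries and 11088 CPM in treated library 6. Its most abundant tested member was miR-146a-5p, at a mean of 2792 CPM in controls and 2624 CPM in treated libraries (not called, adjusted p = 0.9117). That treated mean includes library 6. In treated libraries 1, 2, 4 and 5 the whole list summed to 2244 to 2338 CPM, so miR-146a-5p lay under its treated mean there. The part of leukocyte content in these results was not tested. In such bulk tissue, fewer cells of a type and less of the miRNA per cell cannot be told apart.

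miR-346-5p, encoded within Grid1, a glutamate receptor gene, in an intron (chr14:34894609-34894706, plus strand), read 23.5, 38.3 and 80.5 CPM in controls and 4.64, 11.3 and 19.8 CPM in treated libraries. The groups did not overlap (log2FC −2.06, SE 0.38, 95% interval −2.87 to −1.25, adjusted p = 0.02241). The call was lost without treated library 2, with an adjusted p of 0.05154. miR-674-5p and miR-877-3p also separated the groups, with log2FC −0.78 (SE 0.17, adjusted p = 0.02829) and −0.94 (SE 0.23, adjusted p = 0.03752). With the GC slope removed the log2FC was −1.49 for miR-346-5p, −0.61 for miR-674-5p and −0.62 for miR-877-3p, and all were still called.

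**Figure D4:**
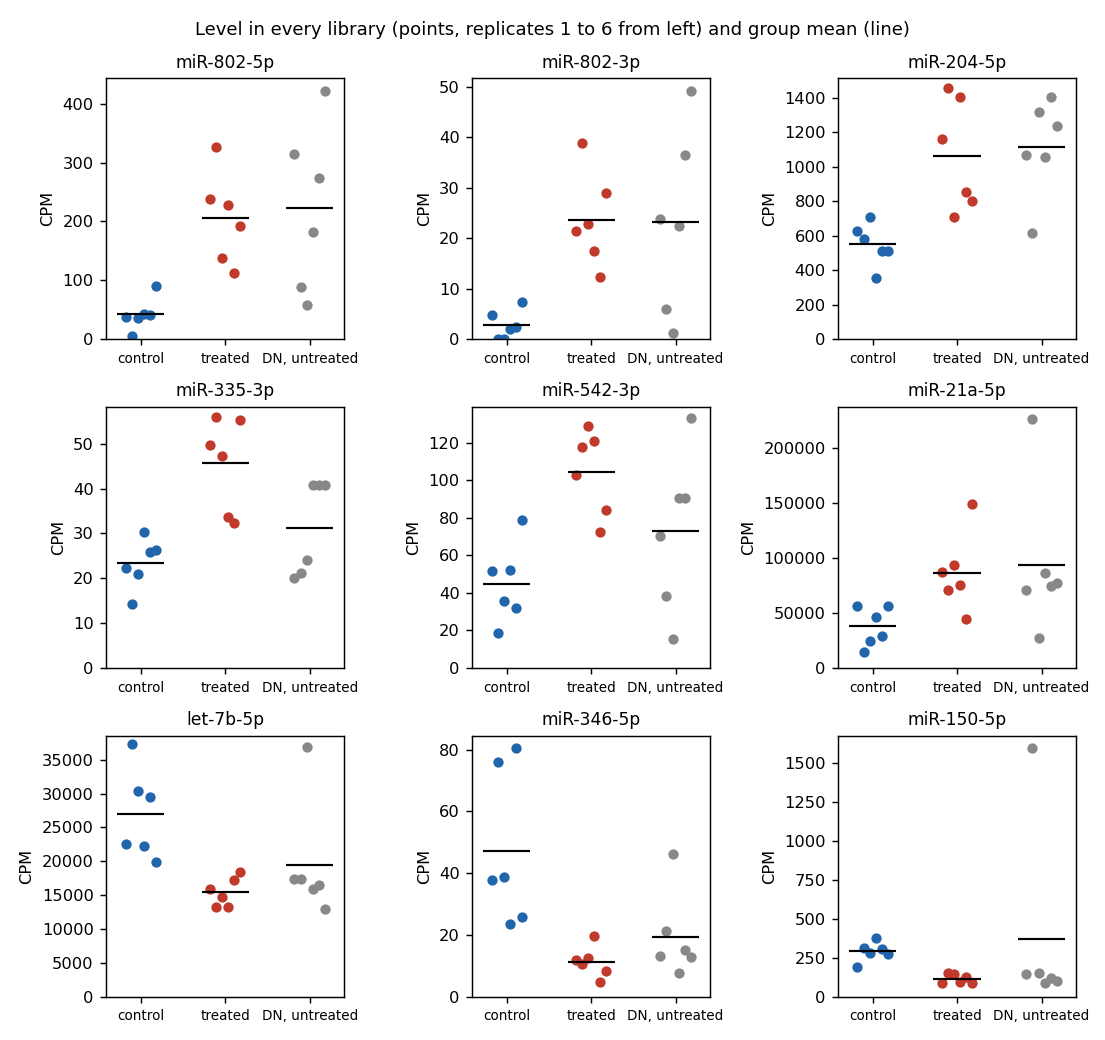
CPM in each library (y axis, linear from 0, 1 panel for each of 9 leading miRNAs) in control, treated and untreated DN kidneys (x axis, 6 libraries each); points are replicates 1 to 6 from the left and lines are group means. miR-802-5p, miR-802-3p, miR-335-3p, let-7b-5p, miR-346-5p and miR-150-5p show no overlap between control and treated libraries, and the DN libraries entered no test.

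The miR-193a hairpin (chr11:79711969-79712034) and Mir365-2 (chr11:79726400-79726511) lie on the same strand of chromosome 11. miR-193a-5p read 93.0, 133 and 217 CPM in controls and 63.0, 82.7 and 92.3 CPM in treated libraries, without overlap (log2FC −0.77, SE 0.21, adjusted p = 0.04403). miR-193a-3p had a log2FC of −0.68 (SE 0.21, adjusted p = 0.04877), and −0.63 (adjusted p = 0.05587) with the GC slope removed. miR-365-3p, which a copy on chromosome 16 also encodes, had a log2FC of −0.77 (SE 0.21, adjusted p = 0.04403).

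On the X chromosome, miR-542-3p and miR-450b-5p, of a cluster with miR-322 and miR-503, rose. miR-450b-5p (chrX:53047997-53048078, minus strand) read 12.2, 18.3 and 25.5 CPM in controls and 25.9, 36.5 and 54.6 CPM in treated libraries, without overlap (log2FC 1.05, SE 0.24, adjusted p = 0.02903, and 0.66 with the GC slope removed). miR-542-3p (chrX:53049403-53049487, minus strand) read 18.7, 43.5 and 78.8 CPM against 72.5, 110 and 129 CPM (log2FC 1.23, SE 0.29, adjusted p = 0.03084). Of 12 tested members of the cluster, these 2 rose, none fell and 10 had a log2FC above 0 (median 0.49). Over all 410 names 6.83% were called higher and 47.1% had a log2FC above 0. With library-size scaling 9 of the 12 members lay above 0 (median 0.26), as did 131 of all 410 names. miR-542-5p, from the same hairpin, was not called (log2FC 0.06, adjusted p = 0.8907), and its sign changed with library-size scaling. miR-450a-1-3p and miR-450b-3p hold 1 value. Chromosomes were counted only for tested names that RefSeq places on a single chromosome. Of 41 such names on the X chromosome 5 rose and 1 fell, and of 281 elsewhere 19 rose and 15 fell. Names without a RefSeq entry, or with copies on several chromosomes such as miR-30c-5p, were in neither count.

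Both arms were tested for 118 hairpins, and 71 of them had the same sign on both. Of 30 hairpins with a called arm, 26 had the same sign on both and 4, those of miR-802, miR-335, miR-21a and miR-193a, had both arms called.

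**Figure D5:**
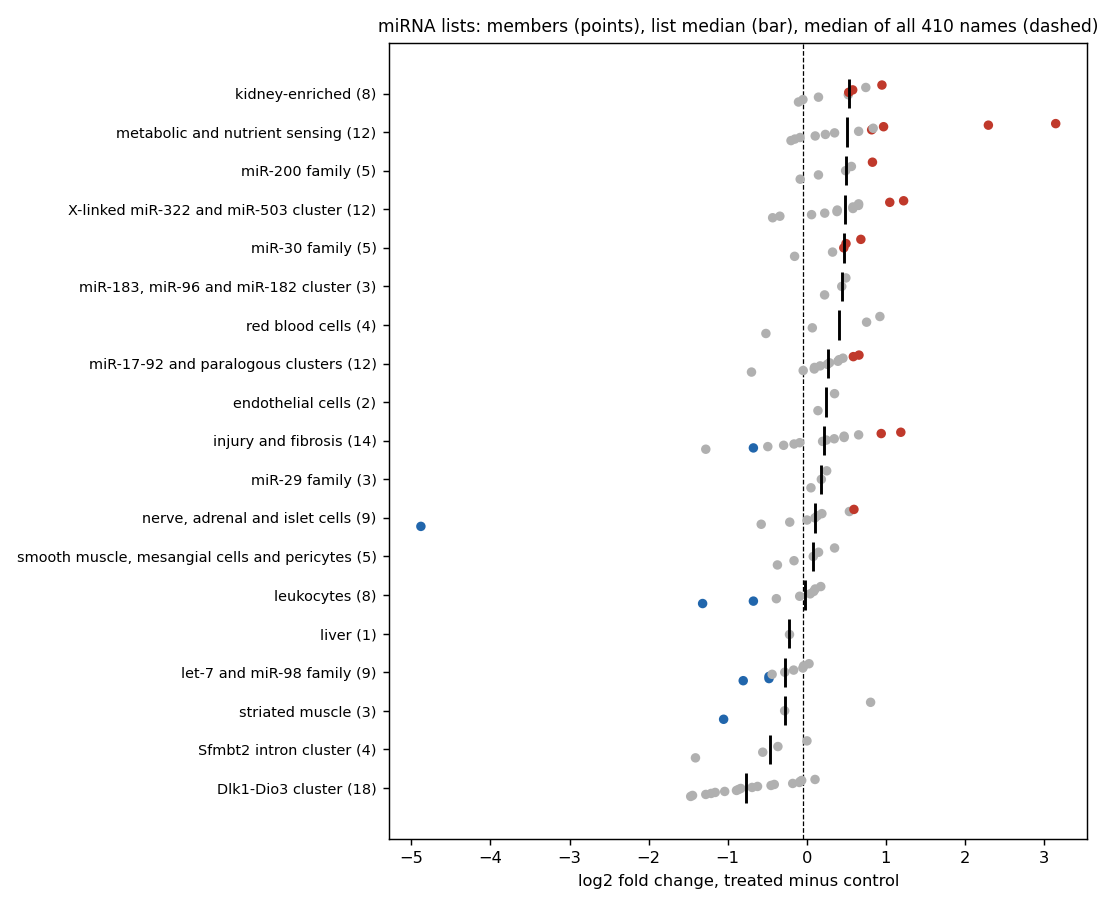
Log2FC of each tested member (x axis, treated minus control, points) in each miRNA list (y axis), with a bar at the list median and a line at the median of all tested names (−0.04). The Dlk1-Dio3 list lies lowest, with a median of −0.76, and no member called.

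The injury and fibrosis list, which holds both miR-21a arms, had 2 names higher and 1 lower among 14 tested (median 0.22, and −0.001 with library-size scaling). Each list here stands beside 6.83% called higher and 5.85% called lower over all names. The miR-200 family, which keeps epithelia from losing their character, had 1 of 5 higher, miR-141-3p (log2FC 0.83, SE 0.25, adjusted p = 0.04585), and none lower. With library-size scaling miR-141-3p was not called (0.62, adjusted p = 0.08091). miR-200a-3p read 13603, 20994 and 32578 CPM against 27015, 32624 and 40081 CPM and was not called (log2FC 0.56, adjusted p = 0.06938). No member of the miR-29 family, which targets collagens, was called (3 tested, median 0.18, and −0.02 with library-size scaling), and miR-29c-3p had a log2FC of 0.25. Of 12 names of the miR-17-92 clusters, miR-106a-5p and miR-363-3p rose (log2FC 0.59 and 0.66) and none fell (median 0.27). Neither was called with library-size scaling (0.36 and 0.44, adjusted p = 0.1632 and 0.1394), and miR-363-3p was not with the GC slope removed (adjusted p = 0.08997). The metabolic list had 4 of 12 higher, the arms of miR-802 and miR-335, and none lower (median 0.50, and 0.28 with library-size scaling). The cluster of miR-182, miR-183 and miR-96 had 3 tested names and no call (median 0.44), and the Sfmbt2 intron cluster 4 tested names and no call (median −0.46). miR-188-3p had a log2FC of −0.20 and was not called (adjusted p = 0.8474).

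The imprinted Dlk1-Dio3 cluster on chromosome 12 had 18 tested names, and none was called. Of these, 17 had a log2FC below 0 (median −0.76), against 52.9% of all names. The cluster's summed level was highest in control 4 (1146 CPM, against 261 to 688 CPM in the other controls). The cluster's median log2FC was −0.35 without that library and −0.09 without controls 2 and 4.

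Among markers of other cells, miR-124-3p, a neuronal miRNA, had the most negative log2FC, and rested on control 4. It read 0.909, 11.1 and 377 CPM in controls, the 377 CPM being control 4, and 0.4999, 0.612 and 11.0 CPM in treated libraries (log2FC −4.88, SE 1.31, adjusted p = 0.04429). The treated median lay under the level of 3 counts, which is 0.632 to 1.14 CPM in the treated libraries, so the size of the fall is uncertain. Without control 4 the log2FC of miR-124-3p was −2.54 and its adjusted p 0.1185. miR-133a-3p, a striated muscle miRNA, had a log2FC of −1.05 (SE 0.30, adjusted p = 0.04403), and −0.77 with adjusted p 0.07504 without control 4. miR-375-3p, known from islets, read 138, 159 and 216 CPM against 179, 236 and 348 CPM (log2FC 0.60, SE 0.18, adjusted p = 0.0453), and was not called with library-size scaling (0.36, adjusted p = 0.197). Of 9 tested nerve, adrenal and islet markers miR-124-3p fell, miR-375-3p rose and 7 were not called (median 0.10 with 6 of 9 above 0, and −0.12 with 2 of 9 above 0 with library-size scaling), and of 3 striated muscle markers 1 fell. No tested endothelial (2), smooth muscle (5), red cell (4) or liver (1) marker was called. miR-451a, a red cell miRNA, had a log2FC of 0.07 (adjusted p = 0.8907).

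The other calls are given here, those outside the fixed lists and ranks having been chosen after their values were seen. Higher were miR-27b-3p, known for regulating lipid genes (13473, 18468 and 23369 CPM against 24918, 26063 and 30377 CPM, log2FC 0.53, adjusted p = 0.03084), miR-152-3p (log2FC 0.74, adjusted p = 0.04403) and miR-3068-3p (log2FC 0.89, adjusted p = 0.02829). These 3 showed no overlap between groups. miR-340-5p had a log2FC of 0.74 (adjusted p = 0.04494) and miR-148b-5p of 0.89 (adjusted p = 0.04185). Among those lower, miR-320-3p had a log2FC of −0.97 (adjusted p = 0.04403), miR-574-5p of −1.02 (adjusted p = 0.04429), miR-185-3p of −0.997 (adjusted p = 0.04403) and miR-652-3p of −0.73 (adjusted p = 0.04683). The remaining calls were miR-221-5p, miR-203b-3p, mir-653-p5, miR-151-5p and miR-344-3p, with log2FC of 0.35 (miR-151-5p) to 1.06 (mir-653-p5). On the lower side they were miR-324-3p, miR-99a-3p, miR-345-5p, miR-326-3p, miR-1968-5p, miR-378a-5p and miR-669o-3p, with log2FC of −0.85 (miR-324-3p) to −0.56 (miR-378a-5p). Among these calls, miR-152-3p, miR-340-5p, miR-148b-5p and those 5 remaining higher names were lost with library-size scaling (adjusted p from 0.06008 to 0.381). With the GC slope removed, the lost ones were miR-340-5p, miR-221-5p, miR-344-3p, miR-185-3p, miR-652-3p, miR-324-3p, miR-326-3p and miR-345-5p (adjusted p from 0.05237 to 0.6028), and miR-877-3p had a log2FC of −0.62. miR-320-3p, mir-653-p5, miR-151-5p, miR-378a-5p and miR-669o-3p had no sequence, so they were not in that fit. The same held for miR-150-5p, miR-375-3p, miR-124-3p and miR-133a-3p.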

How the data were processed

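Kidney small RNA was sequenced in 18 libraries. Per the labels' protocols, RNA was extracted with Trizol, made into TruSeq Small RNA libraries, sequenced on an Illumina HiSeq and filtered with ACGT101-miR. Trimmomatic 0.32, BWA, SAMtools and edgeR appear in the submitters' processing notes with no role. Neither genome build nor miRBase release is given in the sources used here. Raw columns deposited by the authors held estimated counts (77.1% of values above 0 whole), which were rounded. The normalized columns deposited by the authors held a signal, the raw value times 1 factor per library, and were not used for tests. Columns were matched to samples by name.

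Only rows with a mouse name were used (814 of 1534), and 370 rows named for other species (1.04% to 2.99% of counts) and 350 unnamed rows (0.0201% to 0.111%) were left out. Of 53 names on several rows, 47 held equal values on each; for the 6 with unequal rows, whether these are divided copies or separate loci is not known. The row with the largest total was kept, so such a level is per row and may hold only part of the name's reads. The filterByExpr function, by group with a minimum count of 10 and a minimum total of 15, kept 99.978% of counts. edgeR 4.0.16 in R 4.3.3 fitted the 6 control and 6 treated libraries with TMM factors (0.9433 to 1.149 and 0.8144 to 0.9803), a 2-sided quasi-likelihood test (legacy method) and Benjamini-Hochberg adjustment over 410 names. DESeq2 1.42.0 and limma 3.58.1 served as alternatives. No 2 libraries of a group agreed within sampling noise (chi-square per degree of freedom at least 52.6). Counts were also simulated for 410 names. Among those that passed the filter, 76% of 100 2-fold changes, 100% of 97 4-fold changes and 0.966% of 207 unchanged names were called. The simulated libraries were drawn independently, with a spread set by level alone and with no outlying library or GC slope. These shares therefore do not give the power or error rate in the real libraries.

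Named were up to 12 names in each direction with the largest change among those called at 10 CPM or more, called list members, the other arms, the 5 most abundant names and 6 fixed names; further called names were added after their values were seen. The members and lists were chosen with earlier results of these data known. Hairpin positions are RefSeq's (GRCm38.p6), overlaps are from GENCODE M21, and sequences are RefSeq's.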

Additional observations from a re-analysis of the deposited data

Results flagged for a closer look

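In each group of 6, a library was examined when its gap to the nearest other was a larger share of the group's range than Dixon's 95% critical value. This gave 9 of 110 group values. The usual rate of about 1 in 20 assumes independent and normally distributed values. Unlogged CPM of related miRNAs in the same libraries need not meet that, so the 9 cannot be set against that rate. Control 4 was highest for miR-124-3p, at 377 CPM against 53.9 for the next. Treated library 3 was highest for miR-124-3p (11.0 CPM against 3.38) and for miR-10b-5p (42883 CPM against 32224). Treated library 5 was highest for miR-99a-3p (14.8 CPM against 11.8) and for miR-574-3p (166 CPM against 127). Treated library 6 was highest for miR-21a-3p (338 CPM against 201). Control 3 was highest for miR-375-3p (216 CPM against 165). Control 2 was highest for let-7b-3p (382 CPM against 230) and lowest for miR-451a (1417 CPM against 3115).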

How the results depend on the processing

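Beside 52 calls (28 higher, 24 lower), edgeR gave 12 without the filter (9 and 3), 68 with library-size scaling (11 and 57) and 6 without controls 2 and 4 (2 and 4); DESeq2 gave 89 (44 and 45) and limma-voom 73 (44 and 29). Leaving out 1 library gave 1 to 64 calls (0 to 27 higher, 1 to 39 lower). The same replicate numbers did not pair the libraries (r −0.356 to −0.102, 0 of 6 best matched by number), and with the replicate block 1 name was called, miR-150-5p (0 higher, 1 lower, adjusted p 0.03668, 95 names at an unadjusted p under 0.05). With library-size scaling the list medians (log2FC) were 0.31 for kidney-enriched, 0.24 for miR-30, 0.28 for miR-200, −0.51 for let-7, 0.0665 for miR-17-92, 0.26 for the X-linked cluster and −0.15 for smooth muscle. With 1 library left out, the miR-17-92 median ran from 0.10 (without control 2) to 0.38 and the striated muscle median from −0.47 to 0.42 (without control 4), and the latter was 0.23 without controls 2 and 4.

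Names that were not called changed sign. With library-size scaling the log2FC was −0.16 for miR-542-5p, −0.12 for miR-141-5p, −0.0709 for miR-99a-5p and −0.13 for miR-451a. With limma-voom it was −0.35 for miR-141-5p, 0.0875 for let-7b-3p, 0.0493 for miR-188-3p and −0.21 for miR-451a. The replicate block gave −0.19 for miR-141-5p and 0.15 for miR-188-3p. Without controls 2 and 4 it was −0.0737 for miR-542-5p, 0.0268 for let-7b-3p and −0.0827 for miR-451a. A slope on GC content removed per library, an alternative chosen after seeing the data, gave 0.0114 for miR-188-3p, −0.0279 for miR-29c-3p and −0.13 for miR-451a, with 41 calls in place of 43 among 348 names, 29 of them shared. Leaving out 1 library gave −0.0248 to 0.15 for miR-542-5p, −0.24 to 0.42 for miR-141-5p, −0.22 to 0.0976 for let-7b-3p, −0.40 to 0.16 for miR-188-3p and −0.10 to 0.24 for miR-451a. The cause was not tested.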
